A study of Canis lupus familiaris with 6 samples.

Results

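The genes described here encode nuclear subunits of the 5 complexes of oxidative phosphorylation, measured in 6 primary canine osteosarcoma cell lines. They were chosen by name. A probe set counted when its only gene symbol began with NDUFA, NDUFB, NDUFC, NDUFS or NDUFV and a digit, was one of SDHA to SDHD, or began with UQCR, CYC1, COX4 to COX8 or ATP5. This took 63 of the 15115 genes that had a probe set of their own, through 119 probe sets: 34 genes in complex I, 4 in complex II, 8 in complex III, 7 in complex IV and 10 in complex V. Subunits that the array's annotation did not place under this rule, such as COX5A, COX6A1, COX7A2 and the subunits encoded by mitochondrial DNA, were not analysed here. The name rule puts NDUFA4 and its paralogue NDUFA4L2 in complex I, although the NDUFA4 protein is now regarded as a part of complex IV.

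The lines UWKOS1, UWKOS3 and UWKOS7 gave tumours when transplanted into mice and are called tumorigenic (n = 3), and UWKOS2, UWKOS6 and UWKOS8 did not and are called non-tumorigenic (n = 3). All came from canine osteosarcoma, a malignant bone tumour, and all were grown alike in minimum essential medium with cosmic calf serum. RNA was taken from the cultured lines and not from the transplants, 1 Affymetrix array was hybridised per line, and no reference line was included. The labels give no age, breed or tumour site, and each line was arrayed once, so the p-values reflect how much these particular lines vary. Values per line are given in the order UWKOS1, UWKOS3 and UWKOS7 and then UWKOS2, UWKOS6 and UWKOS8. They are log2 array values, and a difference is always tumorigenic minus non-tumorigenic on that scale.

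Oxidative phosphorylation is the chain of reactions by which mitochondria turn reduced cofactors into ATP. Complex I takes electrons from NADH and complex II from succinate, both pass them through ubiquinone to complex III, cytochrome c carries them to complex IV, and complex IV hands them to oxygen. Complexes I, III and IV pump protons across the inner membrane, and complex V, the ATP synthase, uses the returning protons to make ATP. Tumour cells in culture often combine this pathway with a high rate of glycolysis.

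The lines were checked against marker genes. The bone and connective tissue matrix genes COL1A1, COL1A2 and SPARC lay between 12.28 and 14.60 in all 6 lines. COL1A2 and SPARC were lower in every tumorigenic line (differences -0.925 and -0.88, limma adjusted p = 0.0702 and 0.0757). COL1A1 differed by -0.55, RUNX2 by 0.22 and BGLAP by -0.44, all with overlap. The osteoblast genes ALPL and IBSP lay below 6.07, the value under which a gene was not tested, in every line, and SPP1 read 9.76 in UWKOS1 and between 2.79 and 3.30 in the other lines. The mean of 7 macrophage and leukocyte markers ran from 5.77 to 5.99 in the tumorigenic lines and from 5.95 to 6.02 in the non-tumorigenic lines, and that of 4 epithelial markers was 6.41 in UWKOS1 and 3.93 to 5.25 elsewhere. The mean of 6 fibroblast and stroma markers ran from 8.07 to 9.67 in the tumorigenic lines and from 9.86 to 10.28 in the non-tumorigenic lines, without overlap, although 0 of its 5 tested markers passed the test. FAP and LUM were lower in every tumorigenic line (differences -3.86 and -1.37, limma adjusted p = 0.0882 and 0.164), and PDGFRA had a difference of 0.78. The mean of 5 endothelial markers also separated the groups, at 5.89 to 6.13 in the tumorigenic and 5.59 to 5.77 in the non-tumorigenic lines. KDR differed by 1.11 (limma adjusted p = 0.0909), and PECAM1, which lay below 6.07 in every line, by 0.84. TEK went the other way and was lower in every tumorigenic line (difference -0.25), and CDH5 and VWF differed by -0.042 and 0.051 with overlap. The arrays had medians of 6.03 to 6.05. Their log2 ratio of 3′ to 5′ signal, a measure of how complete the labelled RNA was, was averaged over 4 control probe set pairs for GAPDH and actin. This mean was 0.53, 0.59 and 0.81 in the tumorigenic lines and 0.62, 1.55 and 1.48 in the non-tumorigenic lines. The GAPDH pair alone, used below as a covariate, gave 0.86, 0.88 and 1.07 against 0.955, 1.21 and 1.98. There UWKOS6 lay nearer to UWKOS7 than to UWKOS8, so the covariate does not follow the mean of the 4 pairs.

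Subunit transcripts differed little between the groups for most members. Of 62 tested members, 1 rose in the tumorigenic lines, CYC1 of complex III, and 1 fell, NDUFA4L2, by limma with Benjamini-Hochberg adjustment over all 9145 genes tested at a threshold of 0.05. Over all genes tested, 686 (7.50%) rose and 423 (4.63%) fell, so the members' share of 1.61% in each direction lay below both. With centring on the hybridization controls instead, 1146 genes were higher and 304 lower, and the median of all genes moved from 0.033 to 0.21. On the brightest probe sets, only 12 members (19.4%) differed by more than 0.5 in either direction, against 40.4% of all genes. The members were also brighter, with a median level of 11.73 against 8.37 over all genes tested. The part of brightness in this was not tested. Dimmer probe sets of NDUFA10 (1.13 against 0.475) and NDUFC1 (-0.98 against -0.205) differed by more, and that of NDUFA7 (-0.099 against -0.257) by less. The differences were more often positive than negative, in 44 of 62 members (38 with centring on the 75th percentile and 52 with centring on the hybridization controls), and their median was 0.17 against 0.033 over all genes tested. With centring on the 75th percentile these medians were 0.088 and -0.045, and without both UWKOS6 and UWKOS8 they were 0.072 and 0.031. The remaining member, COX6A2, was too dim to be tested.

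Complete separation of the groups is a second way to read the same values. All 3 tumorigenic lines lay above all 3 non-tumorigenic lines in 13 members (21.0%), a share like that of all genes tested (21.7%). They lay below them in 4 members (6.45%), against 16.6% of all genes tested. The 13 are NDUFA12, NDUFB4, NDUFB9, NDUFS7 and NDUFV1 of complex I, SDHD of complex II, CYC1, UQCRC2 and UQCRQ of complex III, and ATP5MC1, ATP5MC2, ATP5MC3 and ATP5PO of complex V. The 4 are NDUFA4L2, NDUFA3, NDUFS4 and COX7A1.

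Complexes II and III had the larger medians in the main fit. The median difference was 0.065 over the 34 members of complex I, 0.37 over the 4 of complex II, 0.45 over the 8 of complex III, 0.21 over the 6 tested members of complex IV and 0.18 over the 10 of complex V. On the probe sets used, all members of complexes II and III had positive differences, and complex I had 20 positive and 14 negative ones. UQCR10 and UQCRH of complex III stood at only 0.036, and both changed sign when arrays were centred on their 75th percentile. Other tested probe sets of SDHC (-0.097), UQCRC2 (-0.045) and UQCRH (-0.20) gave negative differences. The median of complex I changed sign with the centring, to -0.013 when arrays were centred on their 75th percentile, and it was -0.0040 without UWKOS1, 0.043 without UWKOS3, 0.10 without UWKOS2 and 0.0010 without UWKOS8. That of complex IV was 0.12 without UWKOS1, UWKOS3 or UWKOS8, and that of complex V was 0.11 without UWKOS3. The lead of complexes II and III narrowed in some settings. With averaged probe sets complex III had 0.30 and complex IV 0.26. Complex II had 0.22 and complex V 0.19 with the GAPDH 3′ to 5′ ratio as a covariate. Without both UWKOS6 and UWKOS8 they had 0.25 and 0.21. No test was made of the complexes against each other.

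**Figure D1:**
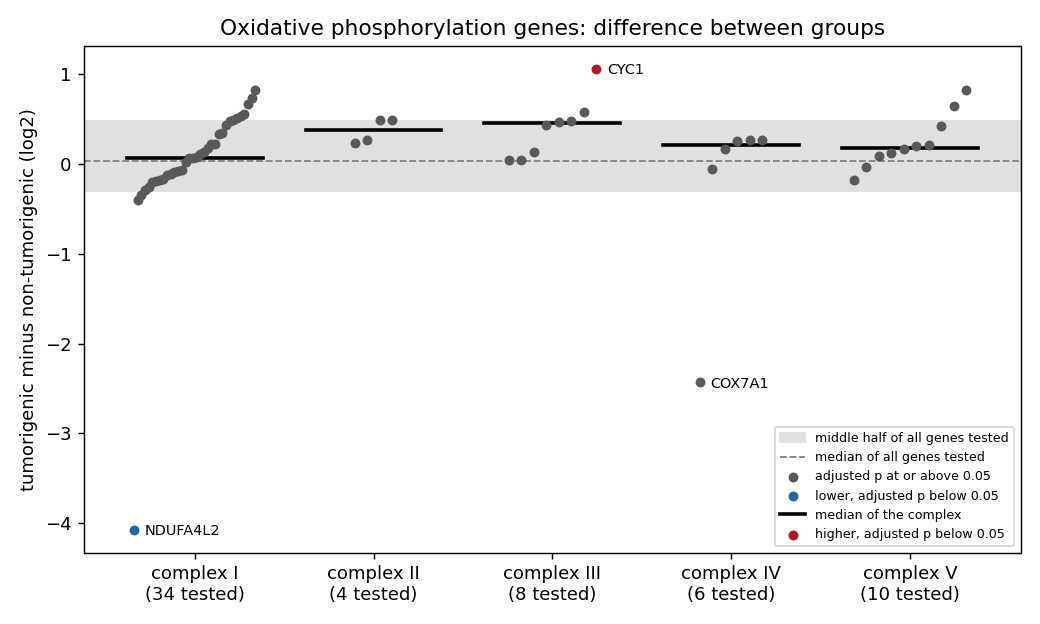
Difference between the tumorigenic and non-tumorigenic lines (log2) for each of the 62 tested members, one point per gene, set out by complex, with the grey band marking the middle part of all 9145 genes tested (-0.30 to 0.48). Most points lie in or near the band, NDUFA4L2 (-4.07) and COX7A1 (-2.43) lie far below it, and CYC1 (1.05) is the highest.

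Complex I is the largest of the complexes, with a peripheral arm that holds the flavin and the iron-sulphur clusters and a membrane arm that pumps protons. NDUFV1 binds NADH and the flavin. It read 11.51, 11.61 and 11.00 in the tumorigenic lines and 10.73, 10.72 and 10.49 in the non-tumorigenic lines, so the groups did not overlap. Its difference was 0.73 with an SE of 0.21 (limma adjusted p = 0.0697), with a 95% interval of 0.23 to 1.23, and its other tested probe set gave 0.67. NDUFV2, the neighbouring iron-sulphur subunit, went no such way: it read 11.80, 11.96 and 11.07 against 11.93, 11.77 and 11.70, a difference of -0.19. Over the 6 nuclear core subunits measured (NDUFV1, NDUFV2, NDUFS1, NDUFS3, NDUFS7 and NDUFS8), 3 differences were positive and 3 negative, and the median was 0.072. The 28 other members, counted here as accessory, had a median of 0.065. Most accessory subunits surround the core and serve its assembly and stability, but the 28 also hold NDUFA4 and NDUFA4L2, placed there by name.

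Among accessory members the largest positive difference was that of NDUFB9, a subunit of the membrane arm. Its values were 12.50, 13.26 and 12.04 in the tumorigenic lines and 11.85, 11.94 and 11.55 in the non-tumorigenic lines. UWKOS3 stood 0.76 above the next line, and although the groups did not overlap, the difference of 0.82 (SE 0.33) did not pass (limma adjusted p = 0.140). NDUFA9, which sits where the arms join, read 12.27, 12.36 and 11.24 against 11.34, 11.27 and 11.27. UWKOS7 was thus level with the non-tumorigenic lines and the other tumorigenic lines were about 1 unit above them. NDUFB6, another membrane arm subunit, read 13.02, 12.27 and 12.92 against 12.69, 12.77 and 12.43, a difference of 0.11, with its 3 tested probe sets running from -0.54 to 0.11. The NDUFA group of 13 had a median of -0.088, the NDUFB group of 9 one of 0.11 and the NDUFS group of 7 one of 0.17.

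Small but even differences in the other direction were seen in NDUFA3 and NDUFS4. NDUFS4, an accessory subunit of the peripheral arm whose loss causes Leigh syndrome, read 12.10, 12.27 and 12.14 in the tumorigenic lines and 12.57, 12.58 and 12.40 in the non-tumorigenic lines. Its difference was -0.35 (limma adjusted p = 0.161), and its other tested probe set gave the same sign and nearly the same size, but there UWKOS1 (11.50) and UWKOS3 (11.48) lay above UWKOS8 (11.31). NDUFA3, a small membrane subunit, read 10.87, 10.80 and 10.91 against 11.10, 11.21 and 11.14, a difference of -0.29 (limma adjusted p = 0.202). Neither gene passed the test, and every tumorigenic line was the lower on both probe sets of NDUFA3 and on 1 of the 2 of NDUFS4.

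NDUFA4L2 gave the largest difference of all members. It encodes a paralogue of NDUFA4 that is induced by hypoxia-inducible factor and lowers electron flow through complex I. Its values were 6.92, 7.70 and 5.77 in the tumorigenic lines and 11.30, 11.49 and 9.80 in the non-tumorigenic lines, with more than 2 units between the groups. The mean was 6.80 ± 0.97 (SD, n = 3) in the former and 10.86 ± 0.93 (SD, n = 3) in the latter, a difference of -4.07 with an SE of 0.63, or 16.8-fold (limma adjusted p = 0.0193). The value in UWKOS7 lies below 6.07, the middle of all probe sets, and no detection calls were used, so the size of the difference is less sure than its direction. It rests on 1 probe set, and in bulk RNA fewer cells with the transcript and less of it per cell cannot be told apart. The mean of the fibroblast and stroma markers also separated the groups (above), with 0 of 5 passing and PDGFRA in the other direction, and its part in this difference was not tested. The limma adjusted p was 0.0523 without UWKOS2 (difference -3.85), 0.0847 without UWKOS6 (difference -3.75) and 0.0660 with the GAPDH 3′ to 5′ ratio as a covariate (difference -4.91).

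NDUFA4 itself showed no comparable difference. It read 12.14, 11.87 and 11.10 in the tumorigenic lines and 12.08, 11.99 and 12.24 in the non-tumorigenic lines, and UWKOS7 stood 0.77 below the next line. The difference was -0.40 with a 95% interval of -1.09 to 0.28 (limma adjusted p = 0.376). Both genes were lowest in UWKOS7.

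**Figure D2:**
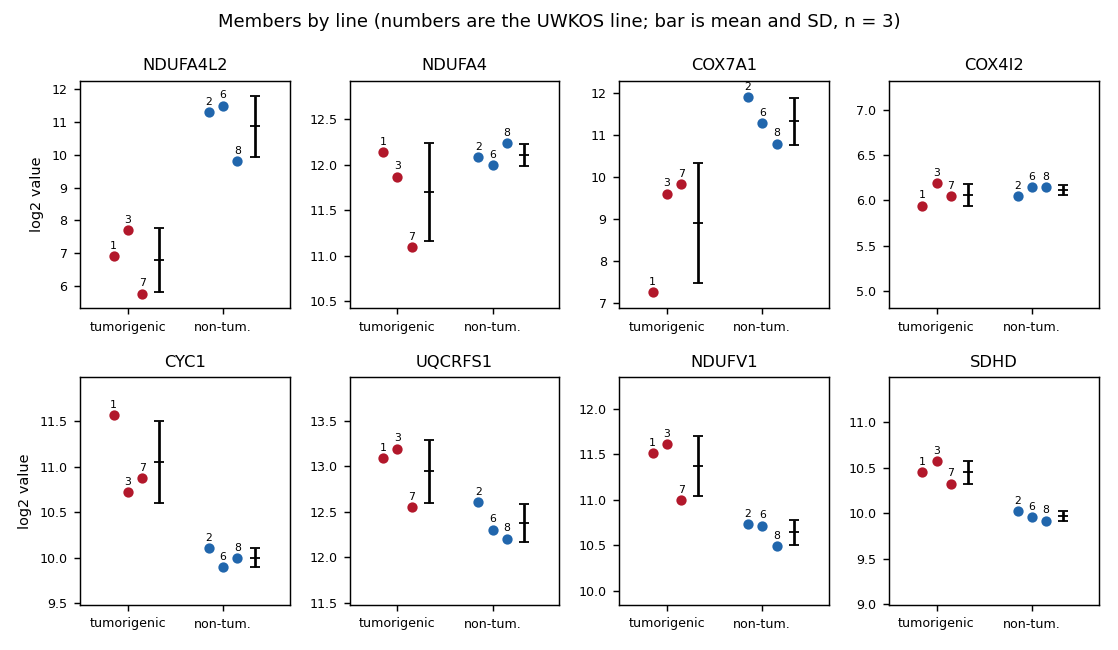
Log2 array values of 8 members in each of the 6 lines, one point per line and a bar for each group mean with its SD (n = 3), each panel on its own log2 axis. The groups are far apart for NDUFA4L2 (6.80 against 10.86) and COX7A1 (8.89 against 11.32), lie apart by less for CYC1, NDUFV1 and SDHD, and overlap for NDUFA4, COX4I2 and UQCRFS1.

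Complex II, succinate dehydrogenase, is the enzyme shared by the respiratory chain and the citrate cycle, and all of its subunits are nuclear. SDHA carries the flavin, SDHB the iron-sulphur clusters, and SDHC and SDHD anchor the enzyme in the membrane. SDHD was the only one of the 4 in which the groups did not overlap, with 10.45, 10.57 and 10.32 against 10.02, 9.96 and 9.92. The difference was 0.48 with an SE of 0.15 (limma adjusted p = 0.0792). SDHA read 11.54, 11.68 and 10.41 against 10.80, 10.75 and 10.62, so that UWKOS7 was the lowest of all lines and the other tumorigenic lines the highest. SDHB had another order, 10.75, 11.76 and 11.81 against 11.35, 11.27 and 10.99, with UWKOS1 the lowest. SDHC read 12.21, 11.60 and 11.39 against 11.67, 11.51 and 11.21. The differences of SDHA, SDHB and SDHC were 0.49, 0.23 and 0.27, none of which passed (limma adjusted p from 0.379 to 0.646), and the 4 subunits of this one enzyme did not share an order of lines.

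Complex III passes electrons from ubiquinol to cytochrome c, and CYC1 is its cytochrome c1, the subunit that makes the last transfer. CYC1 rose in the tumorigenic lines. It read 11.57, 10.72 and 10.87 there and 10.11, 9.90 and 10.00 in the non-tumorigenic lines, with UWKOS1 0.70 above the next line. The means were 11.05 ± 0.45 and 10.00 ± 0.11 (SD, n = 3 each), a difference of 1.05 with an SE of 0.25, or 2.07-fold (limma adjusted p = 0.0450). The call is at the edge of the threshold: leaving out any 1 of the 6 lines gave adjusted p-values from 0.0543 to 0.157, with differences from 0.80 to 1.22, and testing dim genes too gave 0.0573. With the GAPDH 3′ to 5′ ratio as a covariate the difference was 1.00 (limma adjusted p = 0.183).

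The other redox subunit of complex III is UQCRFS1, the Rieske iron-sulphur protein. It read 13.09, 13.19 and 12.55 in the tumorigenic lines and 12.61, 12.30 and 12.21 in the non-tumorigenic lines, so UWKOS7 lay among the latter. The difference was 0.57 with an SE of 0.23 (limma adjusted p = 0.142). UQCRQ, a small accessory subunit, read 13.48, 13.62 and 13.31 against 13.08, 13.07 and 12.83, and all 3 tumorigenic lines were the higher (difference 0.48, limma adjusted p = 0.103). The core proteins UQCRC1 and UQCRC2 differed by 0.13 and 0.43, the latter with no overlap. UQCRH, the hinge protein beside cytochrome c1, read 13.67, 13.79 and 13.52 against 13.60, 13.66 and 13.60. Its difference of 0.036 had a 95% interval of -0.32 to 0.39, and its 4 tested probe sets ran from -0.20 to 0.19.

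Complex IV, cytochrome c oxidase, has a catalytic core made in the mitochondrion and nuclear subunits of which several come as tissue isoforms. COX7A1, the form of subunit VIIa typical of heart and skeletal muscle, was lower in every tumorigenic line. It read 7.24, 9.59 and 9.83 in those lines and 11.89, 11.27 and 10.78 in the non-tumorigenic lines. The means were 8.89 ± 1.43 and 11.32 ± 0.56 (SD, n = 3 each), a difference of -2.43 with an SE of 0.71, and it did not pass (limma adjusted p = 0.0727). UWKOS1 stood 2.35 below the next line, and without it the difference was -1.61 (limma adjusted p = 0.0586). The mean of 8 skeletal and cardiac muscle markers ran from 4.86 to 5.03 in the tumorigenic and from 4.92 to 5.05 in the non-tumorigenic lines. Of these 8, MYH2, MYH7, TNNT3, TNNI2 and MYOG were lower in every tumorigenic line, with differences from -0.21 to -0.16, and DES had a difference of 0.40. Such a separation was seen in 16.6% of all genes tested. MYH2, MYH7, TNNT3 and MYOG lay below 6.07 in every line, too dim for differences of this size to be read. TNNI2 and DES were bright enough to be tested and did not pass (limma adjusted p = 0.449 and 0.377). The part of this list, and of the fibroblast and stroma list, in the difference of COX7A1 was not tested.

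The remaining members of complex IV were close between the groups. COX4I1, the common form of subunit IV, read 13.06, 13.59 and 13.25 against 13.07, 13.03 and 12.99, a difference of 0.27 (limma adjusted p = 0.358). Its counterpart COX4I2, a form known from lung and induced by low oxygen, lay near the lower limit for testing in every line, at 5.94 to 6.19 in the tumorigenic and 6.05 to 6.15 in the non-tumorigenic lines. COX6A2, the muscle form of subunit VIa, lay at 5.71 to 5.95 and 5.87 to 6.17 and was not tested. COX5B differed by 0.26, COX7A2L, a supercomplex assembly factor that carries a subunit's name, by 0.26, and COX8A by 0.16. Of the muscle forms COX7A1 and COX6A2, only the first had a mean above the limit for testing.

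Complex V makes ATP through a ring of c subunits that turns in the membrane and a catalytic head that is driven by it. Every one of the 3 genes for subunit c, which encode the same mature protein, was higher in all tumorigenic lines. Such a separation was seen in 21.7% of all genes tested. ATP5MC1 read 13.01, 12.72 and 12.23 against 11.88, 12.02 and 12.12, a difference of 0.64 (SE 0.23, limma adjusted p = 0.114). ATP5MC3 read 13.65, 13.57 and 13.53 against 13.18, 13.04 and 13.29, a difference of 0.42 (SE 0.15, limma adjusted p = 0.111). ATP5MC2 read 12.74, 13.02 and 12.81 against 12.74, 12.61 and 12.63, where the lowest tumorigenic value exceeded the highest non-tumorigenic value only in the third decimal, and its difference was 0.20 (limma adjusted p = 0.411). None of the 3 passed.

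In the catalytic head the largest difference was that of ATP5F1D, the delta subunit of the central stalk. It read 12.34, 12.30 and 11.67 against 11.72, 11.16 and 10.96, with UWKOS7 just under UWKOS2, and the difference was 0.82 (SE 0.28, limma adjusted p = 0.103). The catalytic subunit ATP5F1B differed by 0.12 (13.99, 14.04 and 14.04 against 13.80, 13.83 and 14.08), ATP5F1A by 0.21 and the gamma subunit ATP5F1C by 0.084. ATP5PO, the stalk subunit that gives sensitivity to oligomycin, differed by 0.16 without overlap. ATP5IF1, the inhibitor that stops the enzyme from running backwards, had a difference of -0.18, and ATP5J2, the f subunit of the membrane part, one of -0.040.

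The lines also differed within the groups. Each member was set against its own mean over the 6 lines, and the median over the 62 members was 0.13 in UWKOS1, 0.19 in UWKOS3 and -0.099 in UWKOS7, and -0.0010 in UWKOS2, -0.051 in UWKOS6 and -0.17 in UWKOS8. The same medians over all genes tested lay between -0.031 and 0.030. UWKOS3 was the highest line in 27 members (43.5%), against 20.6% of all genes tested, and UWKOS8 the lowest in 23 (37.1%), against 15.6%. UWKOS7 was the lowest line in 17 members (27.4%), against 13.7% of all genes. Of those 17, 12 belong to complex I, which holds 34 of the 62 members, and UWKOS8 was the lowest in 13 of the 34. UWKOS7 is a tumorigenic line, so its low subunit values narrow the difference between the groups, while the values of UWKOS3 and UWKOS8 widen it. The members' median difference, 0.17 in the main fit, was 0.22 without UWKOS7, 0.12 without UWKOS3 and 0.12 without UWKOS8.

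**Figure D3:**
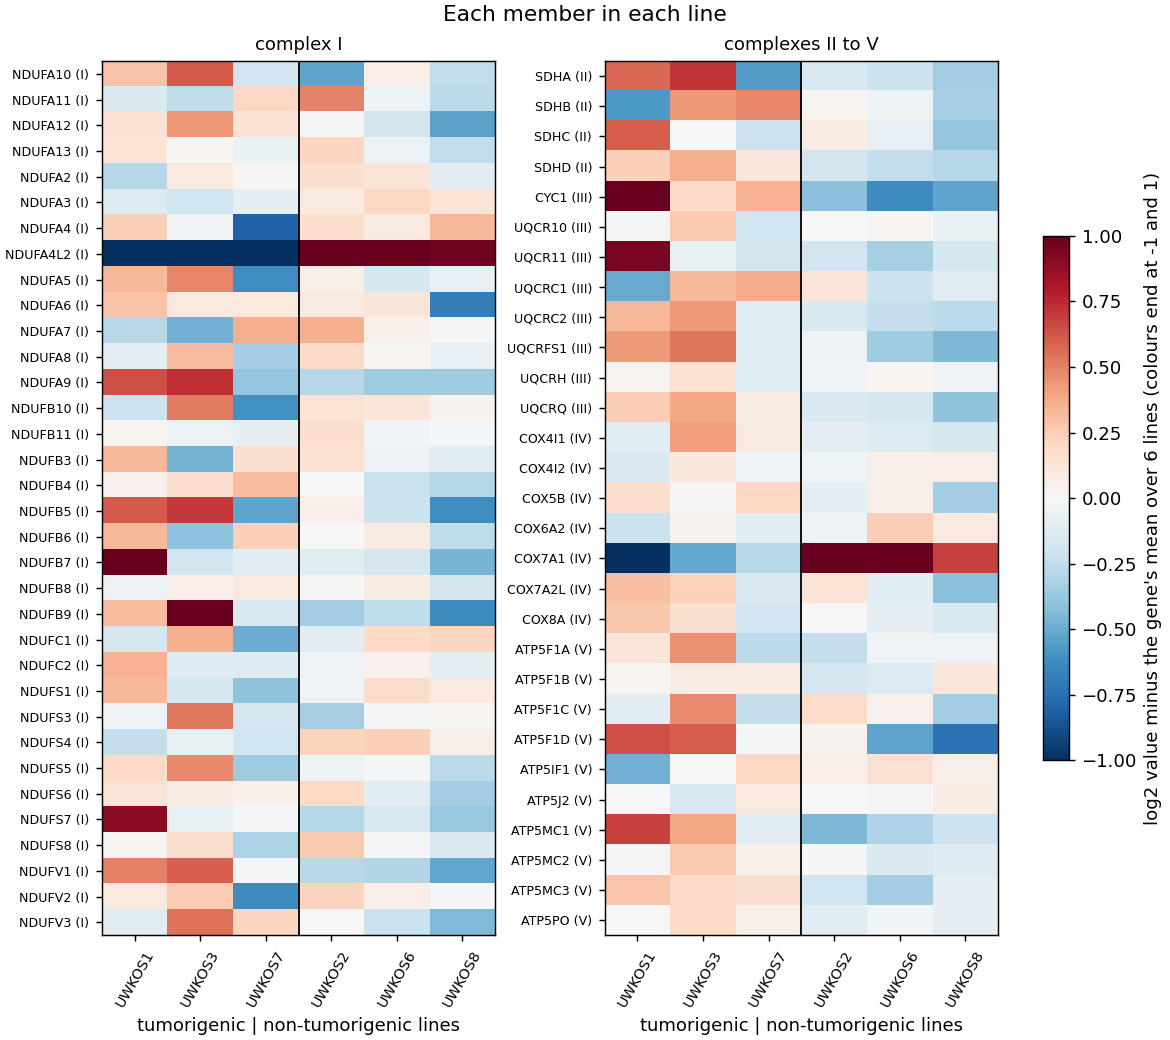
Each of the 63 members, the untested COX6A2 included, in each of the 6 lines, as the log2 value minus the gene's mean over the lines. Members are ordered by complex, colours end at -1 and 1, and the medians given are over tested members. UWKOS3 is mostly above the mean (median 0.19) and UWKOS8 mostly below it (median -0.17). UWKOS7 is low in much of complexes I, III and IV (medians -0.12, -0.11 and -0.091) but not in complex V (median 0.048).

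The complexes followed these lines unequally. In complex II the medians were 0.41, 0.40 and -0.047 in the tumorigenic lines and -0.066, -0.15 and -0.34 in the non-tumorigenic lines. In complex III they were 0.29, 0.30 and -0.11 against -0.10, -0.23 and -0.22, so that UWKOS7 lay at the height of UWKOS2. In complex I they were 0.13, 0.099 and -0.12 against 0.054, -0.011 and -0.16, and UWKOS7 lay below both UWKOS2 and UWKOS6. In complex V all tumorigenic medians (0.015, 0.23 and 0.048) lay above all non-tumorigenic ones (-0.067, -0.082 and -0.093). Complex II was the other complex whose medians separated the groups, narrowly so between UWKOS7 and UWKOS2.

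Without UWKOS7, 4 members rose in the tumorigenic lines, none of them CYC1: NDUFA9 by 1.03 (limma adjusted p = 0.0223), NDUFV1 by 0.92 (0.0310), SDHA by 0.89 (0.0310) and ATP5MC1 by 0.86 (0.0402). These 4 are 6.45% of the members, and that fit called 823 of the 9145 genes higher (9%), so the members' share lay below that of all genes there too. The spread within the tumorigenic group was the wider in 47 of 62 members (75.8%), against 64.2% of all genes tested, and the median SD of the members was 0.34 in the tumorigenic and 0.14 in the non-tumorigenic lines.

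Several members stood out in 1 line. NDUFB7, a membrane arm subunit of complex I, read 12.22 in UWKOS1 and 10.69 to 11.04 in the other 5 lines, a gap of 1.18 to the next. UQCR11, a small subunit of complex III, read 12.78 in UWKOS1 and 11.50 to 11.76 elsewhere, and UWKOS1 was the highest line on all 6 of its probe sets. NDUFS7, a core subunit that carries the last iron-sulphur cluster before ubiquinone, read 12.19 in UWKOS1 and 10.90 to 11.27 elsewhere. All 3 of these genes were highest in the same line and lie on the same chromosome in the RefSeq table of assembly UU_Cfam_GSD_1.0. NDUFA7, NDUFA11, NDUFA13 and UQCRC1 lie there too and were highest in UWKOS2 or UWKOS7. NDUFB7 and UQCR11 have 348 protein-coding genes between them, and NDUFS7 and UQCR11 have 12. ATP5F1D lies nearer to NDUFS7, with 5 such genes between them, and there UWKOS1 was only 0.041 above the next line. On the low side, NDUFA6 read 10.97 in UWKOS8 and 11.75 to 11.95 elsewhere. Other probe sets of a member mostly gave the same sign: of 34 members with more than 1 tested probe set, 26 had one sign throughout. NDUFS1, the largest core subunit, was among those that had not, with differences from -0.17 to 1.15 over 4 probe sets, so its value here depends on the probe set taken.

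Genes that build, feed or regulate the complexes were counted from 5 lists apart from the subunits. Of 11 tested regulators of mitochondrial biogenesis and mitochondrial DNA, 5 rose (45.5%, against 7.50% of all genes tested) and 0 fell. All 11 differences were positive, against 52.5% of all genes, and their median was 0.62 against 0.033. In 8 of the 11 (72.7%) every tumorigenic line was above every non-tumorigenic line, against 21.7% of all genes. The regulators PPARGC1A, NRF1, ESRRA and TWNK were too dim to be tested, with differences of -0.65, 0.54, 0.21 and 0.47. TFAM, which packages mitochondrial DNA and starts its transcription, read 8.79, 8.82 and 8.50 in the tumorigenic lines and 7.31, 6.65 and 7.25 in the non-tumorigenic lines, a rise of 1.64 with an SE of 0.23 (limma adjusted p = 0.0162). TFB1M, a methyltransferase of the mitochondrial ribosome's RNA, rose by 1.41 (limma adjusted p = 0.0176), from 7.81 to 8.34 in the non-tumorigenic lines to 9.44 to 9.75 in the tumorigenic lines.

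GABPA and GABPB1 encode the subunits of the factor also called nuclear respiratory factor 2, which drives many nuclear genes of the respiratory chain. GABPA read 9.32, 8.45 and 8.53 against 7.38, 7.18 and 7.52, a rise of 1.41 (limma adjusted p = 0.0281). GABPB1 read 7.86, 7.73 and 7.61 against 7.08, 6.30 and 6.74, a rise of 1.02 (limma adjusted p = 0.0400). PPRC1, a coactivator related to PGC-1, rose by 0.88 (limma adjusted p = 0.0293), though not when a gene's probe sets were averaged (limma adjusted p = 0.247). For all 5 the groups did not overlap and UWKOS7 lay with the other tumorigenic lines. The count of 5 was 3 without UWKOS1 or UWKOS2, 2 without UWKOS3 or UWKOS8, and 0 without UWKOS6, where 12 genes in all passed. Of all genes, 3.75% rose without UWKOS1, 3.18% without UWKOS2, 2.06% without UWKOS3 and 2.55% without UWKOS8.

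Assembly factors and the supply of substrates gave fewer calls. Among 13 assembly factors of complex I, 2 rose (15.4%, against 7.50% of all genes) and 0 fell, with a median of 0.53. NDUFAF4 read 10.61, 10.13 and 11.08 against 9.54, 8.70 and 8.79, a rise of 1.60 (limma adjusted p = 0.0330), and FOXRED1 rose by 1.34 (limma adjusted p = 0.0426). TMEM126B, another assembly factor, read 4.08 in UWKOS1 and 10.03 to 10.76 in the other 5 lines. Among 19 tested assembly factors of complexes II to V, 2 rose (10.5%) and 0 fell, with a median of 0.43. LRPPRC, which protects messenger RNAs made in the mitochondrion, read 11.54, 11.68 and 11.23 against 9.91, 10.17 and 9.88, a rise of 1.50 with an SE of 0.18 (limma adjusted p = 0.0144). LYRM7, a chaperone that holds UQCRFS1 before it enters complex III, rose by 1.36 (limma adjusted p = 0.0449).

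Among 14 mobile carriers and exchangers 1 rose (7.14%, near the 7.50% of all genes) and 0 fell, with a median of 0.19. SLC25A5, an exchanger of ADP and ATP across the inner membrane found in dividing cells, read 13.01, 13.32 and 12.84 against 11.98, 12.03 and 12.13, a rise of 1.01 (limma adjusted p = 0.0239). VDAC1, the main pore of the outer membrane, read 12.87, 13.04 and 12.81 against 12.41, 12.47 and 12.30, a difference of 0.52 that did not pass (limma adjusted p = 0.0697). The paralogue of SLC25A5, SLC25A4, the form of heart and muscle, read 10.67, 10.93 and 10.88 against 11.11, 11.41 and 11.54, a difference of -0.53 (limma adjusted p = 0.102). Every tumorigenic line was thus above the non-tumorigenic lines for SLC25A5 and below them for SLC25A4. Among 14 genes of the citrate cycle and pyruvate dehydrogenase 2 rose (14.3%) and 0 fell, with a median of 0.40. DLAT, the acetyltransferase of pyruvate dehydrogenase, read 8.79, 9.70 and 8.82 against 7.64, 7.03 and 7.15, a rise of 1.83 (limma adjusted p = 0.0224), and IDH3A, a catalytic subunit of the citrate cycle's isocitrate dehydrogenase, rose by 0.75 (limma adjusted p = 0.0419). None of the 7 genes that passed in these 4 lists did so without UWKOS6. LRPPRC was lost in no other such fit, DLAT also without UWKOS8, NDUFAF4 also without UWKOS1 or UWKOS8, SLC25A5 in all but those without UWKOS1 or UWKOS7, FOXRED1 in all but that without UWKOS1, and LYRM7 and IDH3A in all but that without UWKOS7.

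**Figure D4:**
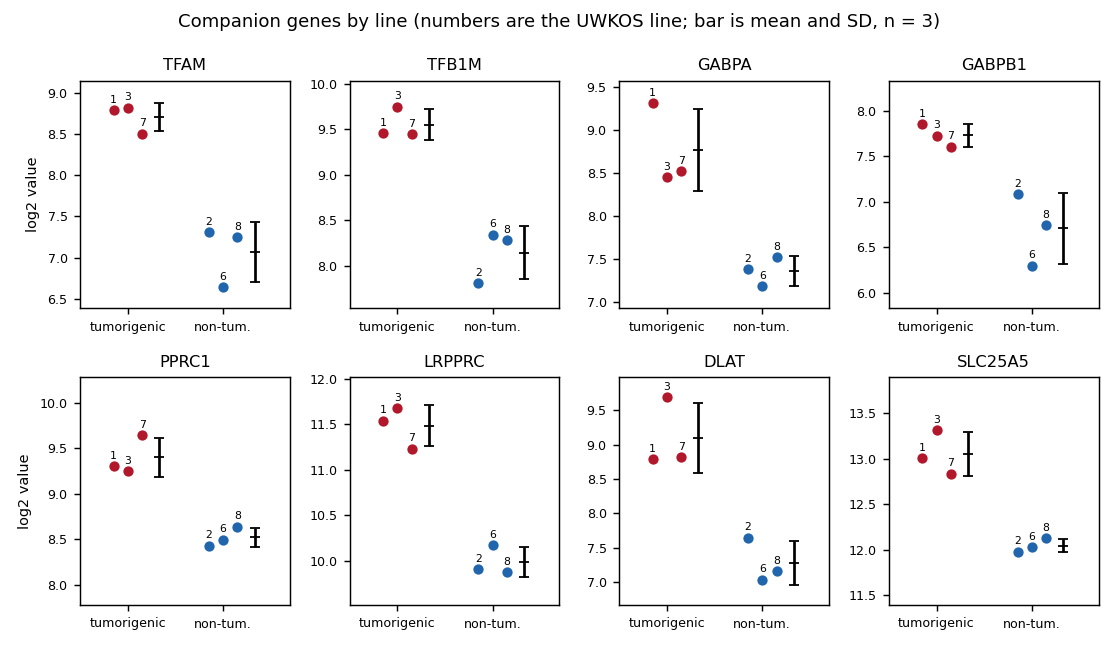
Log2 array values of 8 genes that regulate, assemble or supply the complexes, in each of the 6 lines, one point per line and a bar for each group mean with its SD (n = 3), each panel on its own log2 axis. In all 8 the 3 tumorigenic lines lie above the 3 non-tumorigenic lines, as for LRPPRC (means 11.49 and 9.98) and TFAM (8.71 and 7.07).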

How the data were processed

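The authors deposited 1 table of log2 values with 1 column per line, and 0 columns were left out. The submitters' processing notes name MAS5 and no other tool, but the deposited log2 columns have nearly equal quantiles, so the summary and normalization behind them are not settled here. Of 43035 rows, 111 were control probe sets, and 29254 of the other 42924 had exactly 1 gene symbol. For 27680 probe sets the symbol was brought up to date by gene identifier with the RefSeq table of UU_Cfam_GSD_1.0. The probe set of highest mean stood for a gene, and genes with a mean of at least 6.07, the median over non-control probe sets, were tested (9145 genes, 21462 probe sets for the fit over probe sets).

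Groups were compared with limma 3.58.1 (lmFit, eBayes, no covariate) in R 4.3.3, two-sided, with Benjamini-Hochberg adjustment over all genes tested and a threshold of 0.05. The fit was tested on simulated data first. Members, companion gene lists and markers were chosen with earlier results of these data known, so counts over them are descriptions. Named are members past the threshold, the 3 of largest difference and those of highest and lowest value in each complex, isoform pairs, the subunit c and SDH genes, and in each companion list those past the threshold or among the 2 of smallest p. All other names, among them those of single lines, were chosen after their values were seen. Figures were drawn with matplotlib 3.10.9.

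Alternatives were dropping the filter on dim genes or raising it to the upper quartile, quantile normalization, centring of arrays on the hybridization controls or the 75th percentile, an intensity trend, averaging the probe sets of each gene, a fit over probe sets, the GAPDH 3′ to 5′ ratio as a covariate, and leaving out lines. Moving NDUFA4, NDUFA4L2 and ATP5IF1 out of their complexes, and applying these settings to the companion lists, were added after the data were seen. Promoter and protein sequences were not analysed here.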

Additional observations from a re-analysis of the deposited data

How the results depend on the processing

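With 3 lines a group, few calls held throughout. The count of members that rose (1) was 0 with no filter, 3 when arrays were centred on the hybridization controls (CYC1, NDUFV1 and SDHD), 0 with the GAPDH ratio as a covariate, 0 to 4 when 1 line was left out, and 0 without both UWKOS6 and UWKOS8, where UWKOS2 alone was assumed to vary like the other lines. The count that fell (1) was 0 with the covariate, 0 to 1 without 1 line and 0 without both. Over all genes the covariate left 10 calls, leaving out UWKOS6 left 12 and leaving out both left 1. Hybridization control centring gave 1146 higher and 304 lower genes, against 686 and 423, and moved the median of all genes from 0.033 to 0.21. It took the members' median to 0.34 and those of complexes I, III, IV and V to 0.24, 0.62, 0.38 and 0.35. The covariate took the members' median to 0.038 and that of complex IV to 0.030, and leaving out both lines took complex IV to 0.045. The covariate also turned the median of complex I to -0.037 and changed the sign of 11 members, all with a difference of at most 0.33 in size.

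The regulators' 5 calls were 2 with an upper-quartile filter, which removes dim genes and where 10.1% of all genes rose. The 2 complex I assembly factors were 1 with no filter, with 75th percentile centring or with averaged probe sets. In those settings 4.13%, 6.01% and 9.6% of all genes rose. Hybridization control centring gave 4 for complex I, 4 for complexes II to V and 2 for carriers, where 12.5% of all genes rose. An intensity trend gave 3 carriers, where 7.41% of all genes rose. All 5 lists had 0 calls with the covariate and 0 without both lines. Leaving out 1 line gave 0 to 2 calls in each assembly list, 0 to 3 carriers, 0 to 4 citrate cycle genes and 0 to 5 regulators. The share of all genes that rose in those fits ran from 0.0547% without UWKOS6 to 9% without UWKOS7. Where not named, the cause was not tested. No result with a call reversed, and medians without NDUFA4 and NDUFA4L2 (complex I, 0.088) or ATP5IF1 (complex V, 0.20) stayed close.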
